A study of Homo sapiens with 6 samples.

Results

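The enzymes of lower glycolysis carry fructose bisphosphate to pyruvate. In the RNA-seq data they were followed through 9 genes taken by their symbols: the aldolases ALDOA and ALDOC, TPI1, GAPDH, PGK1, PGAM1, the enolases ENO1 and ENO2, and PKM. These were 9 of the 17631 genes in the data. The 6 libraries came from the human line MDA-MB-231, derived from a triple-negative breast tumour, with 3 libraries of cells given vehicle and 3 of cells given 30 µM PDBAG1, both for 24 h. PDBAG1 is a peptide taken from the protein GPD1 and fused to a cell-penetrating peptide. Per the study's methods, peptides for cell culture were dissolved in distilled water, and whether the vehicle held the penetrating sequence is not given in the sources used here. An effect of that sequence cannot be told apart from that of the GPD1 stretch. No genetic change beyond those of the line itself was named for either group. The labels name breast cancer tissue as well as the cell line, and they do not say whether the libraries came from separate cultures, so p values measure only the spread between these libraries, which may be technical.

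Aldolase splits fructose bisphosphate into a pair of triose phosphates, which triosephosphate isomerase (TPI1) interconverts. Glyceraldehyde phosphate dehydrogenase (GAPDH) then oxidises the triose and yields NADH, phosphoglycerate kinase (PGK1) and pyruvate kinase (PKM) make ATP, and phosphoglycerate mutase (PGAM1) and enolase stand between these kinases. Aldolase and enolase exist as isoforms from separate genes. ALDOA and ENO1 are the widespread forms, whereas ALDOC and ENO2 are best known from brain and neurons, and ENO2 (neuron-specific enolase) is used as a tumour marker. Glycolysis is a prominent route of glucose use in tumour cells, and several of its genes are known targets of hypoxia-inducible factors.

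The deposited values were TPM (transcript abundance corrected for length and scaled to the same total in every library), and 12392 to 12611 genes per library had 1 TPM or more. TPM keeps no record of sequencing depth, which is unknown here. The labelled cell line was checked against marker lists. VIM, KRT8, KRT18, KRT7, CD44, LGALS1 and AXL, which MDA-MB-231 cells express, had group means from 278 to 5877 TPM, while SPARC, also on that list, lay at 0.59 to 0.93 TPM. Receptor and luminal genes were low, with PGR at no more than 0.06, CDH1 at no more than 0.84 and ESR1 at no more than 3.38 TPM, although ERBB2 lay at 23.6 to 25.4 TPM. Of 12 markers of other breast tissue cells, 9 were in the data and 4 passed the expression filter. Their summed level was 17.7 to 19.3 TPM in the vehicle libraries and 22.5 to 23.7 TPM in the PDBAG1 libraries. Among the 4 tested markers the endothelial adhesion gene PECAM1 was the 1 called higher, at 3.94 ± 0.152 and 8.64 ± 0.680 TPM (SD, n = 3 each), while the endothelial gene VWF stayed between 0.02 and 0.09 TPM. Of the fibroblast collagens, COL3A1 lay between 0.02 and 0.07 TPM, and COL1A1 lay between 3.89 and 4.01 TPM with vehicle and between 4.33 and 4.92 TPM with PDBAG1, without overlap but not called (limma adjusted p = 0.121). The monocyte gene CD14 lay between 6.01 and 7.70 TPM, lower in every PDBAG1 library and not called (limma adjusted p = 0.143). The part of these markers in the changes given here was not tested.

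With PDBAG1 the TPM of every lower glycolysis gene was higher, and by very unequal amounts. ALDOC and ENO2, the least abundant of the 9, rose 2.72-fold and 2.18-fold in mean TPM and PGK1 rose 1.56-fold, whereas ALDOA rose 1.33-fold and the remaining 5 rose 1.12-fold to 1.19-fold. All 9 passed the filter of 1 TPM in at least 3 libraries, and all were called higher (limma on log2(TPM + 1), Benjamini-Hochberg adjusted p under 0.05 over 12582 tested genes). Of all tested genes 21.7% were called higher and 15.9% lower, so a rise by this test was common. The 1.5-fold limit was passed by 3 of the 9 genes (ALDOC, ENO2 and PGK1) and by 2.86% of tested genes. In each of the 9, all PDBAG1 libraries exceeded all vehicle libraries, which held for 27.2% of tested genes. The median log2 fold change was 0.25 over the 9 genes and 0.03 over all tested genes. Log2 fold changes on this scale slightly understate the change of the less abundant genes. Under median-of-ratios scaling 7 of the 9 were called higher, GAPDH and ENO1 no longer passing.

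**Figure D1:**
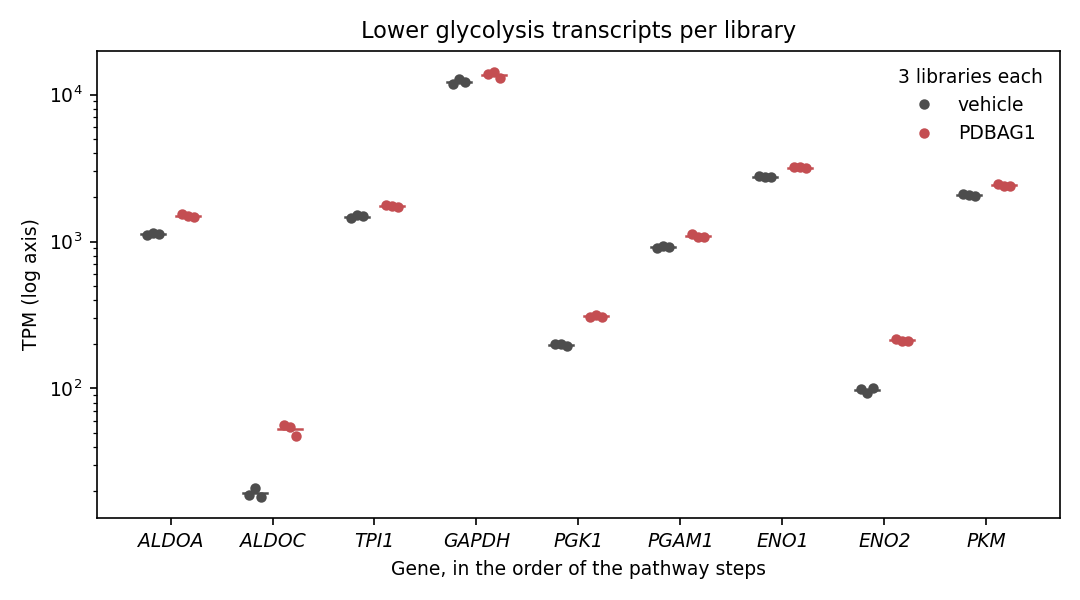
TPM on a log axis of each lower glycolysis gene in the 3 vehicle and 3 PDBAG1 libraries, with each point 1 library and short lines the group means. All PDBAG1 points lie above the vehicle points of the same gene, with ALDOC (19.5 to 52.9 TPM) and ENO2 (97.8 to 214 TPM) moving furthest and GAPDH highest throughout.

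The upstream sequences of the genes that rose at least 1.5-fold, and of ENO1 as the partner of ENO2, are printed to show the hypoxia response element core in each. They are the 250 bases before the annotated start in RefSeq (GRCh38.p14), written 5′ to 3′ on the strand of the gene. Capitals mark ACGTG and GCGTG, or their reverse complements CACGT and CACGC, and the palindrome CACGTG holds ACGTG on both strands as overlapping matches.
ALDOC chr17:28576896-28577145, minus strand: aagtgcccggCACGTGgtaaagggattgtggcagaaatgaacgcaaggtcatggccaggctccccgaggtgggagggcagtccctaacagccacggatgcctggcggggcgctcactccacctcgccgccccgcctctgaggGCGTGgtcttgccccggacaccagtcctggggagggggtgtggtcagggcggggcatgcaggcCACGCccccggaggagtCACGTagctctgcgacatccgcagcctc
PGK1 chrX:78103998-78104247, plus strand: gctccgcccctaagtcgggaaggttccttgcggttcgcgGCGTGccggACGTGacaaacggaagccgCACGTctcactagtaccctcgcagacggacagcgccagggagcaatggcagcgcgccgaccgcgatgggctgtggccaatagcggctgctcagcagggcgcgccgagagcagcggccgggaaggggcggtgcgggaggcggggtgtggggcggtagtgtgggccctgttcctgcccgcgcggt
ENO2 chr12:6914330-6914579, plus strand: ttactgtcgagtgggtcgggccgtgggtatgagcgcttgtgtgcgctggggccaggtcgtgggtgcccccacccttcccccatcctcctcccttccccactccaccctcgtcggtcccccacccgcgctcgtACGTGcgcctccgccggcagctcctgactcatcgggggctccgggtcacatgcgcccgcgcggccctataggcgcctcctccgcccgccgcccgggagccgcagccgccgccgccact
ENO1 chr1:8878687-8878936, minus strand: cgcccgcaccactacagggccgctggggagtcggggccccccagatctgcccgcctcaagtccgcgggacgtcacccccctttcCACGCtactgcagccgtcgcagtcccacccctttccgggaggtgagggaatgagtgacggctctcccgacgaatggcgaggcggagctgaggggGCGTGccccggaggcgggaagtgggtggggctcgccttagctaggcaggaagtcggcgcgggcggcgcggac

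The windows searched ran from 250 bases before to 50 bases after each start, on both strands. ALDOC and PGK1 each held 3 matches of ACGTG. Those of ALDOC began at -240 and -239 (overlapping, on both strands of the same CACGTG) and at -28 relative to the start. Those of PGK1 began at -202, -183 and 29, the last lying downstream of the printed bases. With overlapping matches counted separately, 3 or more of these matches were found in 1.985% of all 35116 RefSeq windows. ENO2 held 1 match, at -118, and ENO1 held none of ACGTG but 2 of GCGTG, at -166 and -72. The aldolase pair differed from this, since ALDOA, which is not printed and rose 1.33-fold, held ACGTG in each of its 3 windows. These matches lay at -178, at -112 and -111 (overlapping), and at -198. GAPDH, with the smallest change of the 9, held 2 overlapping matches of ACGTG at -81 and -80. ACGTG occurred in 8 of the 12 windows of the 9 genes (some have more than 1 start) against 21.409% of all windows, and ACGTG or GCGTG in 10 of the 12 against 48.445%. Windows of 1 gene are not independent, and 3 of those with ACGTG belonged to ALDOA. Counted by gene, 6 of the 9 held ACGTG and 8 held either motif, while the shares over all genes were counted by window only. The windows of all genes were not matched to those of the 9 for base composition or expression level. No match of either motif was found for PGAM1. A match is a description of letters, and binding was not measured.

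Aldolase opens this stretch of the pathway. ALDOA (chromosome 16, 30064164 to 30070457, GRCh38, GENCODE v44) read 1110.0, 1140.2 and 1132 TPM in the vehicle libraries and 1535, 1492 and 1470 TPM in the PDBAG1 libraries. The groups were well apart, and the log2 fold change was 0.41 (95% interval 0.34 to 0.48, limma adjusted p = 4.86e-07). ALDOC (chromosome 17, 28573115 to 28576948) read 19.0, 21.1 and 18.4 TPM with vehicle and 56.7, 55.0 and 47.1 TPM with PDBAG1. Even the lowest PDBAG1 library, replicate 3, was more than 2-fold above every vehicle library. The log2 fold change of ALDOC was 1.39 (95% interval 1.23 to 1.56, limma adjusted p = 1.11e-08), at percentile 99.8 of the log2 fold changes of all tested genes, against percentile 93.0 for ALDOA.

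The aldolase isoforms therefore changed unequally. ALDOC made up 1.68%, 1.82% and 1.60% of the summed TPM of ALDOA and ALDOC in the vehicle libraries and 3.56%, 3.55% and 3.11% in the PDBAG1 libraries. Its share was 1.70 ± 0.111% and 3.41 ± 0.260% (SD, n = 3 each), a difference of 1.71 percentage points, and the groups did not overlap (exact permutation test, two-sided p = 0.1, the smallest that 3 against 3 can give). On the log2(TPM + 1) scale the ALDOC to ALDOA ratio rose by 0.98 (95% interval 0.82 to 1.15, limma adjusted p = 3.64e-09). In the same fit 2.58% of the 12581 other tested genes were called higher relative to ALDOA. Without the added 1, the mean log2 ratio went from -5.86 with vehicle to -4.83 with PDBAG1. ALDOA nevertheless carried most of the aldolase mRNA. Summed aldolase TPM went from 1147 ± 16.4 to 1552 ± 37.5 (SD, n = 3 each), and ALDOC contributed 8.25% of that rise.

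TPI1 and GAPDH, which handle the triose phosphates, changed little in proportion. TPI1 (chromosome 12, 6867119 to 6870948) read 1441, 1504 and 1482 TPM with vehicle and 1782, 1753 and 1720 TPM with PDBAG1, a log2 fold change of 0.25 (95% interval 0.18 to 0.32, limma adjusted p = 5.20e-05). GAPDH (chromosome 12, 6534512 to 6538374) read 11837, 12672 and 12083 TPM with vehicle and 13712, 14236 and 12946 TPM with PDBAG1. The libraries of GAPDH came closest to overlapping, the highest vehicle library being vehicle replicate 2 and the lowest treated library PDBAG1 replicate 3. Its log2 fold change was 0.16 (95% interval 0.08 to 0.24, limma adjusted p = 0.00503), at percentile 72.3 of all tested genes. The GAPDH call was lost without the expression filter (adjusted p = 0.0642), without the variance trend (0.0658) and under median-of-ratios scaling (log2 fold change 0.12, adjusted p = 0.336), within a range of limma adjusted p values from 0.000614 to 1 over its alternatives, the value of 1 arising under quantile normalisation. Since GAPDH ranked first of 17631 genes in every library, quantile normalisation sets its change to 0 by construction. GAPDHS, the sperm form, lay at 2.24 ± 0.0954 and 2.06 ± 0.652 TPM (SD, n = 3 each), which did not pass (log2 fold change -0.10, limma adjusted p = 0.601).

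PGK1, the first ATP-making enzyme of the pathway, was the least abundant of the 9 after ALDOC and ENO2. It rose more than the genes above it in level. PGK1 (chromosome X, 77910739 to 78129295) read 200.1, 199.7 and 195.7 TPM in the vehicle libraries and 308, 314 and 305 TPM in the PDBAG1 libraries. The spread within each group was small beside the gap between them. The log2 fold change was 0.64 (95% interval 0.56 to 0.71, limma adjusted p = 1.99e-08), at percentile 97.7. PGAM1 (chromosome 10, 97426191 to 97433444), the next enzyme, read 910.2, 934 and 919 TPM with vehicle and 1122, 1066 and 1074 TPM with PDBAG1. This was a separate pair of groups but a smaller step, with a log2 fold change of 0.24 (95% interval 0.17 to 0.31, limma adjusted p = 9.44e-05). The testis form PGK2 reached at most 0.08 TPM, the muscle form PGAM2 at most 0.22 and PGAM4 at most 0.11, none of them tested.

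Enolase repeated the unequal pattern of aldolase. ENO1 (chromosome 1, 8861000 to 8879190) read 2769.7, 2764 and 2767 TPM with vehicle and 3204, 3208 and 3141 TPM with PDBAG1. The vehicle libraries were almost level, and the log2 fold change was 0.20 (95% interval 0.14 to 0.27, limma adjusted p = 0.000123). ENO2 (chromosome 12, 6913745 to 6923698) read 99.8, 93.2 and 100.3 TPM with vehicle and 218, 212 and 211 TPM with PDBAG1. Each PDBAG1 library was more than 2-fold above each vehicle library. The log2 fold change of ENO2 was 1.12 (95% interval 1.03 to 1.21, limma adjusted p = 4.38e-10), at percentile 99.6, against percentile 78.2 for ENO1. Under median-of-ratios scaling ENO1 missed the threshold (log2 fold change 0.16, limma adjusted p = 0.0506, the highest of its alternatives, which went down to 9.96e-05).

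ENO2 made up 3.48%, 3.26% and 3.50% of the summed TPM of ENO1 and ENO2 in the vehicle libraries and 6.37%, 6.19% and 6.31% in the PDBAG1 libraries. Its share was 3.41 ± 0.131% and 6.29 ± 0.0924% (SD, n = 3 each), a difference of 2.87 percentage points without overlap (exact permutation test, two-sided p = 0.1, again the smallest possible). The ENO2 to ENO1 ratio rose by 0.92 on the log2(TPM + 1) scale (95% interval 0.82 to 1.01, limma adjusted p = 1.17e-09), with 7.26% of the 12581 other tested genes called higher relative to ENO1. Without the added 1, the mean log2 ratio went from -4.82 with vehicle to -3.90 with PDBAG1. ENO2 contributed 21.7% of the rise in summed enolase TPM, which went from 2864.6 ± 6.87 to 3398 ± 39.8 (SD, n = 3 each). The minor isoform thus carried a larger part of the rise for enolase than ALDOC did for aldolase. ENO3, the muscle isoform, went from 7.18 ± 0.219 to 8.88 ± 0.221 TPM (n = 3, SD; limma log2 fold change 0.27 at adjusted p = 0.0133). Leaving out vehicle replicate 2 ended that call (adjusted p = 0.0545, against 0.00519 to 0.0463 over the other alternatives). ENO4 lay between 0.49 and 0.91 TPM and was not tested.

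**Figure D2:**
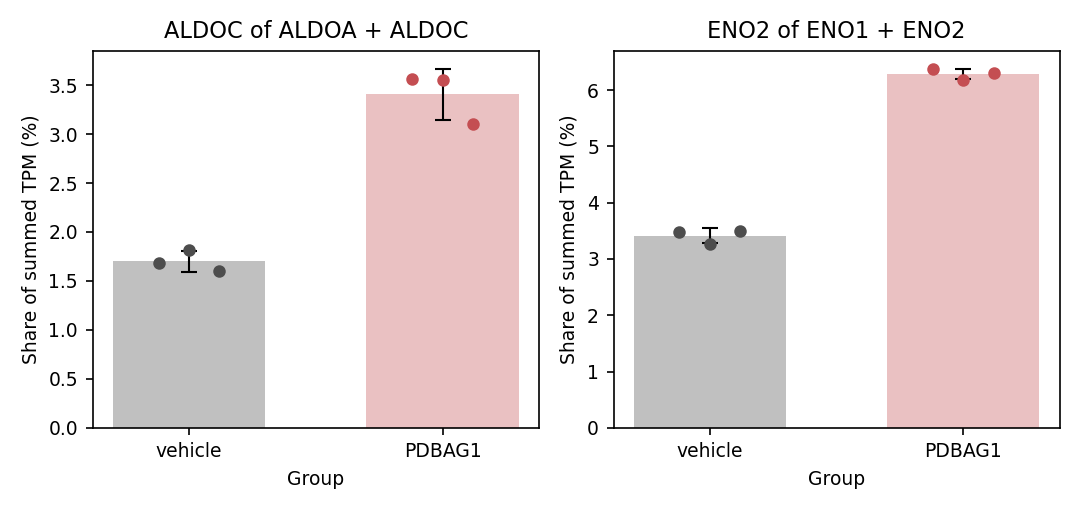
ALDOC as a percent of ALDOA plus ALDOC TPM and ENO2 as a percent of ENO1 plus ENO2 TPM in each library, with points for the libraries, columns for the group means and error bars for the SD (n = 3). The ALDOC share moved from 1.70% to 3.41% and the ENO2 share from 3.41% to 6.29%, with no overlap between vehicle and PDBAG1 libraries.

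PKM, the enzyme that closes the pathway, behaved like the other abundant genes. PKM (chromosome 15, 72199029 to 72231819) read 2118, 2084 and 2039.6 TPM with vehicle and 2451, 2403 and 2377 TPM with PDBAG1. The groups did not overlap, and the log2 fold change was 0.21 (95% interval 0.15 to 0.28, limma adjusted p = 0.000141). One value per gene cannot separate the alternatively spliced PKM1 and PKM2 forms. Of 5 splicing factors known to act on PKM, 2 were called lower and 0 higher by limma, with the same counts of 2 and 0 at an unadjusted p under 0.05, beside 15.9% lower and 21.7% higher over all tested genes. SRSF3 fell from 172 ± 4.97 to 134 ± 3.13 TPM (n = 3, SD; limma log2 fold change -0.36 at adjusted p = 1.67e-05) and HNRNPA1 from 945 ± 19.4 to 848 ± 18.0 TPM (n = 3, SD; limma log2 fold change -0.16 at adjusted p = 0.00251). PTBP1, HNRNPA2B1 and RBM4 had log2 fold changes of -0.07, -0.02 and -0.07 and did not pass. PKLR, the liver and red cell pyruvate kinase, stayed at or under 0.09 TPM.

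Ordered by change, the 9 genes fell into separate steps at the top and an unresolved group below. The order came from these same values, and the intervals between neighbours are not adjusted for that sorting or for the number of pairs, so they are descriptive. ALDOC exceeded ENO2 by 0.27 on the log2 scale (95% interval 0.08 to 0.47), ENO2 exceeded PGK1 by 0.48 (0.36 to 0.61) and PGK1 exceeded ALDOA by 0.22 (0.12 to 0.33). ALDOA exceeded TPI1 by 0.16 (0.07 to 0.25). From TPI1 through PGAM1, PKM and ENO1 to GAPDH, neighbouring genes differed by 0.01 to 0.04 with every interval spanning 0, so their order was not resolved. The order of levels, in contrast, was resolved and was the same in both groups. TPM fell from GAPDH through ENO1, PKM, TPI1, ALDOA, PGAM1, PGK1 and ENO2 to ALDOC, and no neighbouring pair overlapped between libraries of a group. The widest steps in the vehicle group were from ENO2 to ALDOC (5.02-fold), PGAM1 to PGK1 (4.64-fold) and GAPDH to ENO1 (4.41-fold), and with PDBAG1 they narrowed to 4.04-fold, 3.52-fold and 4.28-fold.

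**Figure D3:**
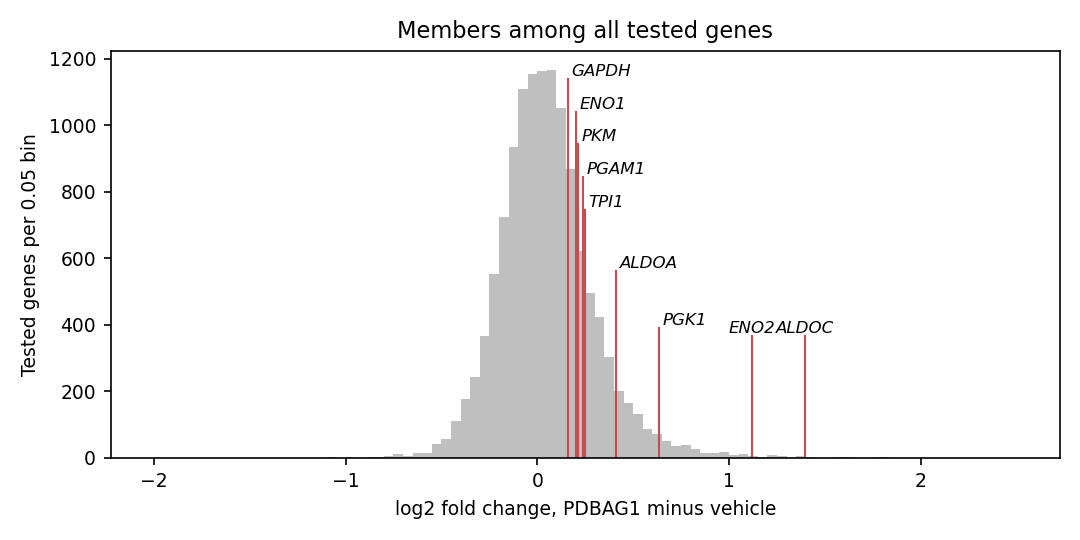
Distribution of log2 fold changes over all 12582 tested genes in bins of 0.05, with a vertical line at each of the 9 genes (line heights only separate the names). GAPDH lies at percentile 72.3 and ALDOC at percentile 99.8, and the median of all tested genes is 0.03.

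Relative to GAPDH in the same library, which is often used as a reference transcript, the picture divided further. ALDOC rose from 0.160% to 0.388% of GAPDH TPM, ENO2 from 0.803% to 1.57%, PGK1 from 1.63% to 2.27% and ALDOA from 9.25% to 11.0%. Their log2 differences against GAPDH were 1.23 (95% interval 1.09 to 1.38), 0.96 (0.83 to 1.09), 0.48 (0.37 to 0.58) and 0.25 (0.15 to 0.35). For TPI1, PGAM1, PKM and ENO1 the intervals spanned 0, with log2 differences of 0.09 (-0.01 to 0.18), 0.08 (-0.03 to 0.18), 0.05 (-0.05 to 0.16) and 0.04 (-0.06 to 0.14). This reference was chosen after the values were seen.

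**Figure D4:**
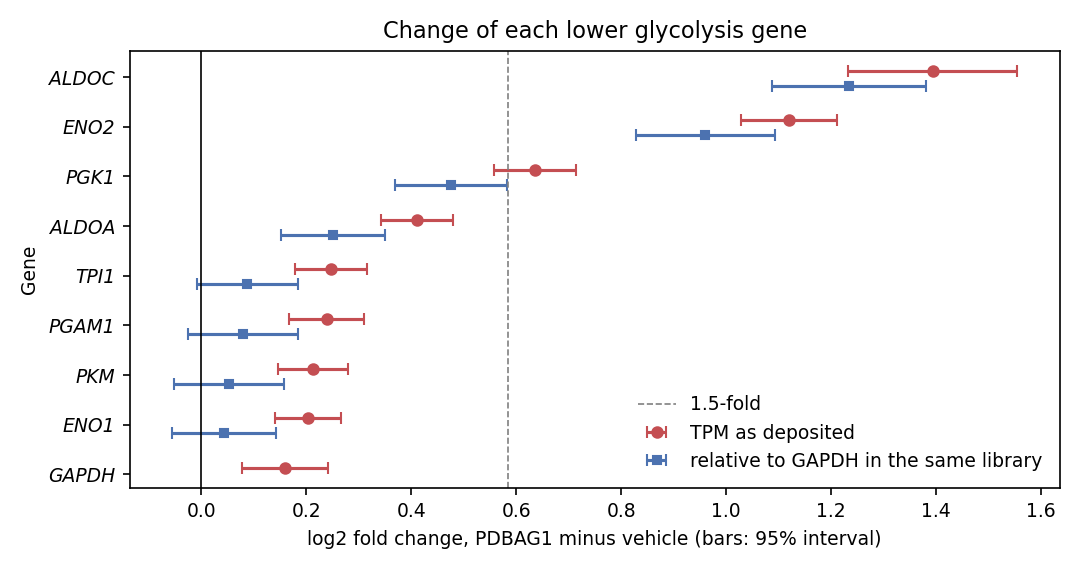
Log2 fold change on the log2(TPM + 1) scale, PDBAG1 minus vehicle, of each gene in order of size, from TPM as deposited (circles) and relative to GAPDH in the same library (squares), with bars the 95% intervals over 3 and 3 libraries and a dashed line at 1.5-fold. ALDOC (1.39) and ENO2 (1.12) stand apart on both, while the squares of TPI1, PGAM1, PKM and ENO1 have intervals that span 0.

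By amount of mRNA the order of contributions was nearly the opposite of the order of change. Summed TPM of the 9 genes was 20505, 21411 and 20736 in the vehicle libraries and 24387, 24738 and 23291 in the PDBAG1 libraries, a rise of 3255 TPM (1.16-fold) without overlap. This took the 9 genes from 2.09 ± 0.0471% to 2.41 ± 0.0755% of each library (SD, n = 3 each; exact permutation test, two-sided p = 0.1, the smallest possible). GAPDH supplied 44.0% of the summed rise, ENO1 12.8%, ALDOA 11.4% and PKM 10.1%, against 3.56% from ENO2, 3.39% from PGK1 and 1.03% from ALDOC. These parts depend on the scaling, since the summed rise was 2597 TPM under median-of-ratios scaling, where GAPDH was not called, and 1998 TPM under quantile normalisation, where the change of GAPDH is 0 by construction. The GAPDH part of the summed level went from 58.4 ± 0.734% to 56.5 ± 1.00% (SD over 3 libraries each).

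The steps on either side of this stretch moved in part with it. Of 12 other glycolysis genes 9 were tested, with 6 called higher, 1 lower and a median log2 fold change of 0.36, beside 21.7% and 15.9% called over all tested genes. Of the hexokinases that trap glucose, HK2 rose from 17.0 ± 0.810 to 31.9 ± 1.41 TPM and HK1 from 168 ± 6.28 to 265 ± 9.60 TPM (n = 3 and SD for each). By limma the log2 fold changes were 0.87 and 0.66, with adjusted p = 2.42e-07 and 8.36e-08. HKDC1, also tested, lay at 3.24 ± 0.126 and 3.62 ± 0.402 TPM (n = 3, SD) and did not pass (log2 fold change 0.12, limma adjusted p = 0.366). LDHA, which reduces pyruvate to lactate, rose from 2524 ± 49.8 to 3673 ± 100 TPM, while LDHB, the other subunit of lactate dehydrogenase, fell from 1079 ± 12.1 to 954 ± 23.6 TPM (n = 3 and SD for each). By limma the log2 fold changes were 0.54 and -0.18, with adjusted p = 3.48e-08 and 0.000843.

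The branches that leave lower glycolysis were followed through 10 genes. Of these, 9 were tested with limma, with 0 higher and 2 lower at the adjusted threshold, 1 higher and 2 lower at an unadjusted p under 0.05, and a median log2 fold change of -0.07, beside 21.7% higher and 15.9% lower over all tested genes. PGP, a phosphatase of glycolytic side products and glycerol phosphate, fell from 36.1 ± 0.158 to 29.3 ± 1.14 TPM, and PSAT1 of serine synthesis fell from 229 ± 12.5 to 199 ± 14.8 TPM (n = 3 and SD for each). By limma the log2 fold changes were -0.29 and -0.20, with adjusted p = 0.000916 and 0.0119. The groups overlapped for PSAT1, with vehicle replicate 2 at 214.48 TPM and PDBAG1 replicate 3 at 214.83 TPM. The PSAT1 call was lost without vehicle replicate 3 (adjusted p = 0.0588), without PDBAG1 replicate 2 (0.0632) and without the variance trend (0.0665), over alternatives from 0.00148 to 0.0665. GPD1, whose protein gave the peptide its sequence and which draws on the product of aldolase, read 0.04, 0.04 and 0.07 TPM with vehicle and 0.11, 0 and 0.08 TPM with PDBAG1 and was not tested.

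Of 8 genes for gluconeogenesis, which runs against glycolysis, 7 were in the data and 4 were tested, with 1 called higher and 1 lower, shares near the 21.7% and 15.9% of all tested genes. Pyruvate carboxylase PC rose from 22.9 ± 1.84 to 34.1 ± 0.306 TPM, and the fructose bisphosphatase FBP1, which opposes the step just before aldolase, fell from 48.1 ± 1.44 to 36.8 ± 2.16 TPM (n = 3 and SD for each). By limma the log2 fold changes were 0.55 and -0.38, with adjusted p = 1.83e-05 and 0.000164. PCK2 and G6PC3 had log2 fold changes of 0.13 and -0.03 and did not pass.

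The genes whose pattern lay closest to the most changed genes were found by the root mean square distance between log2 differences from the vehicle mean over the 6 libraries. Closest to ALDOC were the mTORC1 inhibitor DDIT4 (distance 0.041), which went from 189 to 506 TPM, the cytokine gene CSF2 (0.076) and ANGPTL4 (0.11), an inhibitor of lipoprotein lipase. Closest to ENO2 were the lipoprotein receptor VLDLR (0.037), CRIP2 (0.039) and the cyclin-dependent kinase inhibitor CDKN1A (0.040), the last going from 50.8 to 113 TPM. Closest to PGK1 were the laminin gene LAMB3 (0.020), C4orf3 (0.026) and PLEKHM1 (0.027). The distance compares size of change and replicate pattern at once, over 2 groups only. It was taken on log2(TPM + 1), which understates changes at low levels. ANGPTL4 went from 3.29 to 10.9 TPM and VLDLR from 3.81 to 9.36 TPM.

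GAPDH, TPI1 and ENO2 lie near each other on chromosome 12, between 6534512 and 6923698. Of the 18 tested genes in that block, the 15 that are not lower glycolysis genes changed by a median of 0.04 on the log2 scale, with 3 called higher, 3 lower and 0 higher by at least 1.5-fold, near the shares of all tested genes (21.7%, 15.9% and 2.86%). The neighbour with the largest rise, ING4, had a log2 fold change of 0.39, below the 1.12 of ENO2. Of the 9 genes, 7 have pseudogenes in the annotation that bear their names, 95 in all with 65 named for GAPDH and 13 for PGAM1, and ALDOC and ENO2 have none. No row of the data was named for a pseudogene, so how reads of such copies were assigned cannot be told from the values, and the levels of those 7 genes carry that uncertainty.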

How the data were processed

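RNA-seq was done on 3 vehicle and 3 PDBAG1 libraries. The authors deposited TPM per gene, rounded to 2 decimals and scaled to the same sum per library. The submitters' processing notes name HISAT2 2.0.4, Bowtie2 2.2.5, RSEM 1.2.12 and GRCh38.p12, whereas the paper's methods describe a later patch of that build and FPKM. TPM keeps no depth, so counting error could not be given, and count tests were not run. Genes with at least 1 TPM in 3 or more of the 6 libraries were tested as log2(TPM + 1) with limma 3.58.1 in R 4.3.3 (lmFit, eBayes with a variance trend), with Benjamini-Hochberg adjustment. For isoform ratios, the log2 value of ALDOA or ENO1 was subtracted from every gene in each library before the fit. Genes fitted this way share the reference, so their spreads are not independent. Intervals relative to GAPDH and between neighbours used the spread prior of the single-gene fit. Named genes were all 9, their paralogues, up to 3 tested genes per list with the largest change in each direction, GPD1, and the 3 closest patterns. Members and lists were chosen with earlier results of these data known. Some results under this rule are not reported here. Only the single-gene limma fit and the fit relative to ALDOA were run on simulated data.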

Additional observations from a re-analysis of the deposited data

How the results depend on the processing

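The number of lower glycolysis genes called higher, 9, became 8 without the expression filter, 8 without the variance trend, 8 under quantile normalisation and 7 under median-of-ratios scaling, and stayed at 9 under a pseudocount of 0.1, with length and GC trends removed and without any single library. The number with a rise of at least 1.5-fold stayed at 3 in each of these, and 2 passed a limit of 2-fold. The rise of 3255 in summed TPM became 2597 under median-of-ratios scaling and 1998 under quantile normalisation, and ranged from 2955 to 3679 with 1 library left out. On the log2(TPM + 1) scale isoform ratios rose by 0.94 to 1.05 (ALDOC to ALDOA) and 0.88 to 0.94 (ENO2 to ENO1) with 1 library left out. With the spread prior of the single-gene fit, a moderated t test of each ratio alone gave unadjusted p = 4.57e-09 and 7.97e-11. GAPDHS, not called, changed by -0.10 on the log2 scale and by 0.084 without PDBAG1 replicate 1, and ranged from -0.22 to 0.08 with 1 library left out. The cause of these shifts was not tested. Replicate numbers did not pair the libraries (correlations of deviations -0.207, 0.0118 and -0.0785), and as a block the replicate number gave counts of 9 and 3 and ratio changes of 0.98 and 0.92, with no call changed. The length and GC correction and that prior were chosen after the data were seen. Depth limits are unknown because TPM keeps none.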
